A study of Mus musculus with 6 samples.

Results

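The 10 genes described here set vascular tone in the liver sinusoid: the vasoactive peptides Edn1 and Adm, the endothelin-converting enzyme Ece1, the receptors Ednra, Ednrb and Calcrl, the receptor partner Ramp2, and the enzymes Nos3, Ptgis and Pde2a. They were chosen by symbol from the 23282 rows of the count files, and each was found in all 6 libraries' files. The libraries hold RNA of liver sinusoidal endothelial cells (LSECs), the fenestrated endothelial cells of the hepatic sinusoids, from TXNIP-/- mice (n = 3) and WT mice (n = 3). The TXNIP-/- mice lacked the gene in every tissue and were kept on a C57BL/6J background, and the WT mice were C57BL/6J. No treatment is given for either group, and the age and sex of these mice and the number of mice per library were not given in the sources used here. LSECs were enriched from collagenase-perfused livers on a density gradient and with magnetic beads against CD146, an endothelial surface protein, so other liver cells can remain. The selected cells are described as cultured in an endothelial growth medium. Whether the RNA counted here was taken before or after culture is not stated, so the levels below may be those of cultured cells. RNA was counted by QuantSeq, which reads the 3′ end of each transcript, so counts are not expected to grow with transcript length. Levels of different genes are set side by side below as the counts given to each gene. These also depend on the annotated 3′ ends, on overlapping genes and on multiple alignments, so they are not exact numbers of transcript ends. Positions below are those of GENCODE M21 on GRCm38, the assembly also called mm10.

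Endothelin-1 is made as a precursor, is cut to its active form by endothelin-converting enzyme, and constricts vessels mainly through the type A receptor on smooth muscle and stellate cells. The type B receptor on endothelium binds and clears endothelin and couples to nitric oxide release. Endothelial nitric oxide synthase and prostacyclin synthase make dilating signals that act through cyclic GMP and cyclic AMP, adrenomedullin dilates through the receptor formed by CALCRL with RAMP2, and PDE2A breaks down both cyclic nucleotides. Endothelial loss of nitric oxide is a known feature of LSEC dysfunction, and the comparison asked whether the RNA of these genes differed without TXNIP, a protein that binds thioredoxin.

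Counts per library summed to between 9147764 and 10193952. Levels are in CPM, each gene's count as a share of the library's counts, scaled by TMM normalization factors, given as mean ± SD over 3 libraries. At these sizes 3 counts, taken as the floor, equal 0.286 to 0.335 CPM in 1 library. Txnip itself was counted 269, 216 and 191 times in TXNIP-/- replicates 1 to 3 against 1901, 2019 and 1994 times in WT, and was 24.2 ± 5.15 CPM against 196 ± 13.3 CPM, a log2 fold change of -3.02 (SE 0.14, adjusted p = 6.94e-10, edgeR quasi-likelihood test with Benjamini-Hochberg adjustment). The ribosomal RNA precursor Rn45s took 9.68% and 10.03% of the counts in WT replicates 2 and 1 and 16.8% to 18.6% in the other 4 libraries, so these WT libraries stood apart. The summed level of 12 LSEC markers was 5558 and 5925 CPM in WT replicates 1 and 2, 3607 CPM in WT replicate 3 and 3217 to 3738 CPM in the TXNIP-/- libraries. The split among the WT libraries was carried by Lyve1, a hyaluronan receptor, at 3482, 3780 and 1520 CPM in WT replicates 1 to 3. The other 11 markers, summed without Lyve1 after these values were seen, gave 2076 to 2145 CPM in WT and 1661 to 1761 CPM in TXNIP-/- libraries. All 12 LSEC markers had lower means in TXNIP-/- LSECs, and 2 were called, the scavenger receptor Stab1 and the mannose receptor Mrc1. Stab2 had an adjusted p of 0.0448 by edgeR and a fold change of 0.777, short of the fold needed for a call. The labels number the libraries without saying that each came from a separate mouse, so p-values measure the spread between libraries, which may be technical. In bulk RNA, fewer cells of a type and less RNA per cell cannot be told apart.

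The sinusoidal endothelial fraction held abundant RNA of both vasoactive peptides, of the enzyme that matures endothelin and of PDE2A, moderate RNA of the endothelin B receptor and of the adrenomedullin receptor pair, little of Nos3 and Ptgis, and almost none of the endothelin A receptor. Across all 6 libraries the mean levels ran from Edn1 at 1830 CPM through Adm at 1601, Pde2a at 618, Ece1 at 352, Calcrl at 211, Ednrb at 110, Ramp2 at 44.9, Nos3 at 11.2 and Ptgis at 3.01 to Ednra at 0.174 CPM. Between Pde2a and Ptgis this order held without overlap: each library of one gene was above each library of the next. At the top, Edn1 was above Adm in 5 of 6 libraries and their ranges overlapped. At the bottom, the ranges of Ptgis and Ednra overlapped, and both genes had 4 counts in WT replicate 2. Edn1 ranked 26th and Adm 30th by mean level among the 11583 genes that passed the filter on low counts. The 3′ ends of Nos3, Ptgis and Pde2a overlap other annotated genes, as given below, so their levels may not be those of these genes alone. The annotated 3′ UTR of Ptgis was 12 bases long, and reads beyond an annotated end may have been missed.

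**Figure D1:**
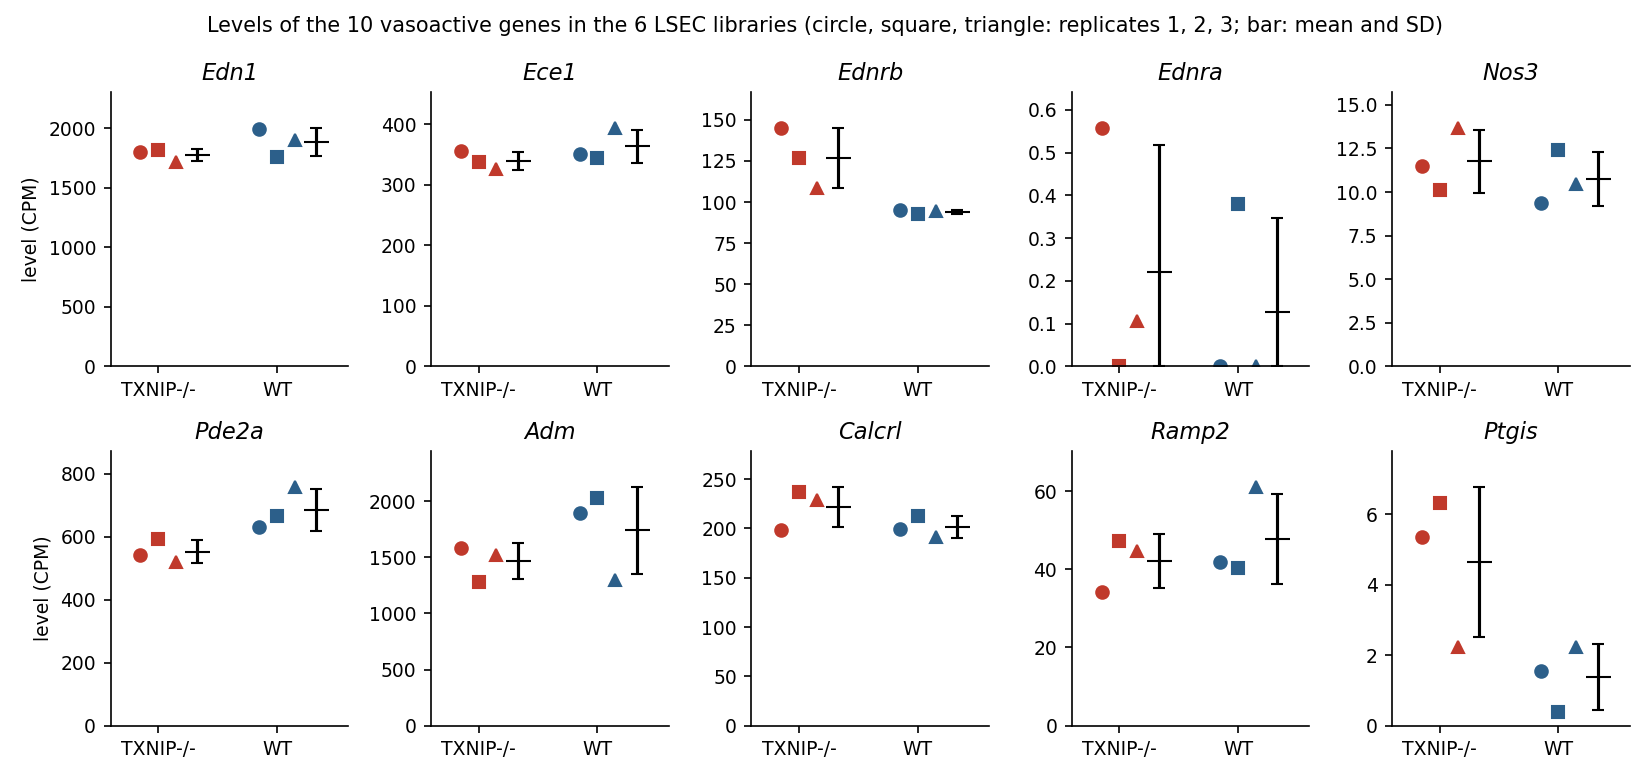
Levels of the 10 genes in CPM, on axes that start at 0, for the TXNIP-/- libraries (red) and the WT libraries (blue), with circles, squares and triangles for replicates 1, 2 and 3 and black bars for mean and SD (n = 3). The genotypes separate for Ednrb, Pde2a and, narrowly, Ptgis, and they overlap for the other 7 genes.

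Of the 10 genes, 9 passed the filter on low counts and Ednra did not. None of the 9 was called in the edgeR quasi-likelihood test, where a call needs a Benjamini-Hochberg adjusted p under 0.05 over all tested genes and a fold change above 1.3, beside 167 of 11583 genes called in all (1.44%). DESeq2 called 1 of them, Ednrb, and limma-trend 0. At an unadjusted p under 0.05 there were 3 of the 9, Ednrb, Ptgis and Pde2a, beside 11.5% of all tested genes. The same 3 genes had no overlap between the libraries of the genotypes, beside 17.4% of all tested genes. The mean was higher in TXNIP-/- LSECs for 4 of the 9 and lower for 5, with a median log2 fold change of -0.09, and the median over all tested genes was 0.00.

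**Figure D2:**
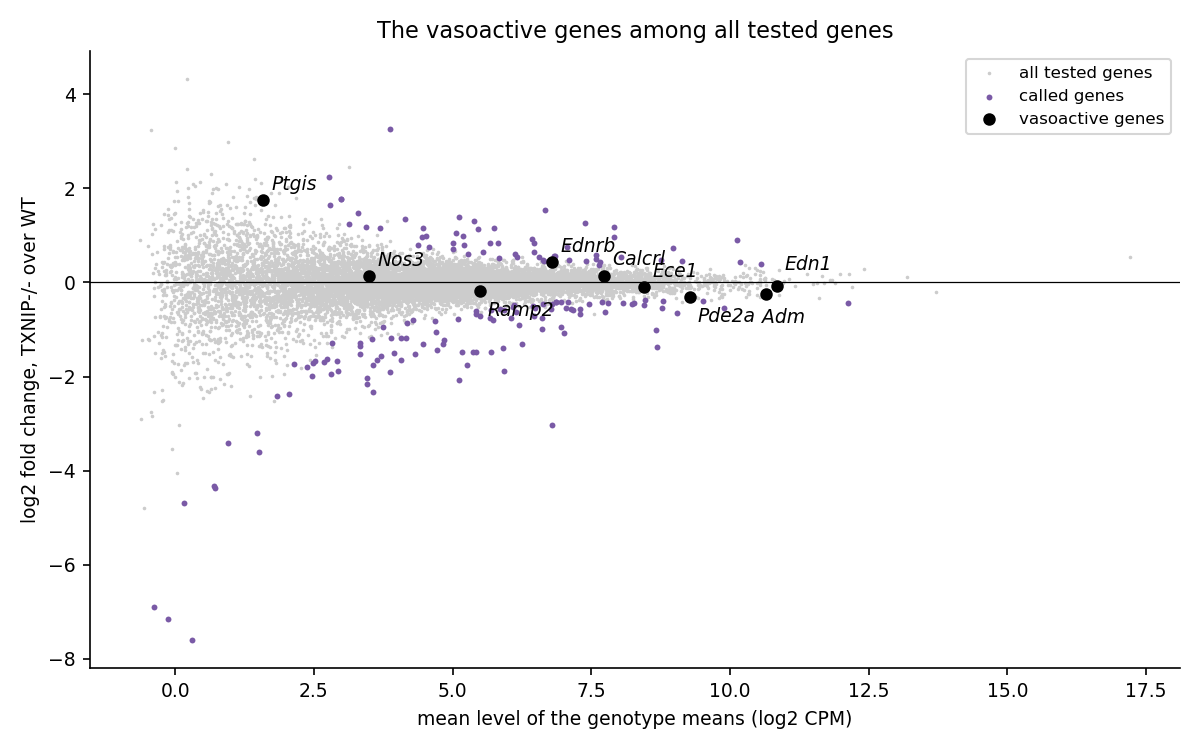
Log2 fold change of TXNIP-/- over WT (vertical axis) against the mean of the genotype means in log2 CPM (horizontal axis) for all 11583 tested genes (grey), the 167 called genes (purple) and the 9 tested vasoactive genes (black, named). Edn1 and Adm lie at the abundant end near a fold change of 1, and Ptgis, with the largest log2 fold change of the 9 at 1.74, lies at the low end where the scatter of all genes is widest.

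Edn1 (chromosome 13, 42301476 to 42307990, plus strand, with a 3′ UTR of 1111 bases) encodes the endothelin-1 precursor. It was counted 16087, 17792 and 16060 times in TXNIP-/- replicates 1 to 3 and 20494, 18473 and 17952 times in WT replicates 1 to 3. In CPM the libraries were even, at 1796, 1814 and 1717 against 1995, 1760 and 1899, and the genotypes overlapped because WT replicate 2 lay below 2 of the TXNIP-/- libraries. The means were 1776 ± 51.5 and 1884 ± 118 CPM, a log2 fold change of -0.09 (SE 0.07, adjusted p = 0.715 by edgeR), and the 95% interval of the fold change ran from 0.850 to 1.04. Over the TXNIP-/- libraries Edn1 was the least variable of the 10 genes, with a coefficient of variation of 2.90%. The other endothelin ligands were near or at 0: Edn2 had no count in any library and Edn3 had 1 count in 1 library.

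Adm (chromosome 7, 110627661 to 110629820, plus strand, with a 3′ UTR of 652 bases) encodes adrenomedullin. Its counts were 14202, 12571 and 14251 for TXNIP-/- against 19436, 21260 and 12296 for WT, in the order of the replicate numbers, as below. Its level was high in WT replicates 1 and 2, at 1892 and 2025 CPM, while WT replicate 3, at 1301 CPM, lay within the TXNIP-/- range of 1281 to 1586 CPM. The means were 1464 ± 161 and 1739 ± 386 CPM, with a log2 fold change of -0.25 (SE 0.12, adjusted p = 0.459 by edgeR) and an interval of the fold change from 0.702 to 1.01. The WT libraries with more Adm were those with the lower Rn45s share and with more of the LSEC marker Lyve1, while the sum of the other 11 LSEC markers was close in all 3 WT libraries. The part of these in the difference was not tested. Without WT replicate 3 Adm was called lower in TXNIP-/- LSECs (log2 fold change -0.42, adjusted p = 0.0015), whereas with a term for WT replicates 1 and 2, so that WT rests on replicate 3, its log2 fold change was 0.17 (adjusted p = 0.419). Leaving out WT replicate 1 or WT replicate 2 gave log2 fold changes of -0.19 and -0.13. Among the fits run, that of Adm was above 0 only where WT replicate 3 alone stood for WT. With no filter on low counts Adm passed the threshold on p (adjusted p = 0.0425 by edgeR) but not that on fold change. The related peptide genes Adm2, Calca and Calcb had no count in any library.

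Ece1 (chromosome 4, 137862237 to 137965229, plus strand) encodes the protease that cuts big endothelin-1. It had 3185, 3310 and 3053 counts in TXNIP-/- LSECs and 3606, 3621 and 3727 in WT LSECs. After scaling the genotypes overlapped, with 326 to 356 CPM against 345 to 394 CPM, and the highest level was in WT replicate 3. The log2 fold change was -0.10 (SE 0.09, adjusted p = 0.748 by edgeR), with an interval of the fold change from 0.825 to 1.06. Its homologue Ece2 was lower by more than an order of magnitude, at 17.1 ± 0.579 against 17.4 ± 1.11 CPM.

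Ednrb (chromosome 14, 103814625 to 103844402, minus strand, with a 3′ UTR of 2441 bases) encodes the endothelin B receptor. Its counts were 1300, 1242 and 1016 for TXNIP-/- against 976, 973 and 895 for WT. The WT libraries were tightly grouped, with a coefficient of variation of 1.33%, and the TXNIP-/- libraries were all above them and more spread, at 145, 127 and 109 CPM. The means were 127 ± 18.3 and 94.1 ± 1.25 CPM, a fold change of 1.35 (95% interval 1.14 to 1.59) and a log2 fold change of 0.43 (SE 0.11). The unadjusted p was 0.0013 and the adjusted p was 0.0697 in the edgeR quasi-likelihood test, which missed the threshold. Of the 10 genes Ednrb came nearest to a call, and its log2 fold change lay between 0.32 and 0.53 under each of the alternatives run. It was called with DESeq2 (adjusted p = 0.0204), with no filter on low counts (0.0138 by edgeR), and without TXNIP-/- replicate 3 (0.0420) or WT replicate 3 (0.0485). The other fits did not call it. By edgeR the adjusted p was 0.197 with no normalization factors and 0.136 with the replicate block. It was 0.299 without TXNIP-/- replicate 1 and 0.183 without TXNIP-/- replicate 2. Without WT replicate 1 it was 0.247, and without WT replicate 2 it was 0.280.

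Hepatic stellate cells and smooth muscle also carry endothelin receptors, so markers of these cells are given beside Ednrb. Over 12 stellate cell markers the summed level was 61.2, 81.7 and 88.6 CPM in TXNIP-/- replicates 1, 2 and 3 and 51.3 to 59.9 CPM in WT libraries, with 8 of 10 tested markers higher and 1 called, Dcn, which encodes the matrix protein decorin. Over 7 smooth muscle markers it was 130, 138 and 126 CPM in the same TXNIP-/- order against 71.2 to 88.2 CPM in WT, with 4 of 4 tested markers higher and 2 called, the actin Acta2 and the actin-binding protein Tagln, while Cnn1 was at 0 in all libraries. All 8 pan-endothelial markers were tested and had lower means in TXNIP-/- LSECs, with none called and sums of 2866 to 3203 against 3075 to 3612 CPM. Of 11 tested Kupffer cell markers 9 were called lower, with sums of 272 to 301 against 675 to 705 CPM. Hepatocyte markers summed to 68.6 to 71.7 against 59.5 to 60.8 CPM with none of 10 tested called, and none of the neutrophil and lymphocyte markers passed the filter. Markers of large-vessel endothelium summed to 351 to 387 against 377 to 420 CPM, with 2 of 6 tested higher, 4 lower and none called. Those of lymphatic endothelium summed to 3.80 to 6.52 against 4.29 to 5.74 CPM. Cholangiocyte markers summed to 5.02 to 7.34 against 2.92 to 7.83 CPM, and none of either list was called. Their part in the level of Ednrb was not tested.

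Ednra (chromosome 8, 77663031 to 77724464, minus strand) encodes the endothelin A receptor. It had 5, 0 and 1 counts for TXNIP-/- and 0, 4 and 0 for WT. Summed over a genotype this was 6 counts or 0.213 CPM (exact Poisson 95% interval 0.0783 to 0.464) and 4 counts or 0.132 CPM (0.0361 to 0.339), intervals that cover counting error only. The groups overlapped, and a difference between genotypes was not detectable at this depth. Nearly all endothelin receptor counts in these libraries were those of Ednrb. Which cells the Ednrb RNA came from was not tested.

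Calcrl (chromosome 2, 84330626 to 84425411, minus strand) encodes the membrane-spanning receptor of adrenomedullin. It had 1780, 2329 and 2140 counts in TXNIP-/- LSECs and 2052, 2235 and 1809 in WT LSECs. The genotypes overlapped at 199 to 237 CPM and 191 to 213 CPM, with TXNIP-/- replicate 1 below 2 of the WT libraries. The log2 fold change was 0.14 (SE 0.09, adjusted p = 0.637 by edgeR), and the interval of the fold change ran from 0.958 to 1.26. Ramp2 (chromosome 11, 101246028 to 101259546, plus strand), the partner that makes CALCRL an adrenomedullin receptor, had 306, 464 and 417 counts against 431, 422 and 577. Its highest library was WT replicate 3 at 61.0 CPM and its lowest was TXNIP-/- replicate 1 at 34.2 CPM, and the other 4 lay between 40.2 and 47.3 CPM. The log2 fold change was -0.18 (SE 0.17, adjusted p = 0.773 by edgeR) and became 0.03 without WT replicate 3. For Ramp2 the 3′ end examined for overlap with other genes was at 101248250, before the gene's last base, and later positions were not examined. The alternative partners Ramp1 and Ramp3, and the calcitonin receptor Calcr, were too low to be tested, with at most 8 counts of any of them in a library, so Ramp2 was the most abundant of the 3 partners in these libraries.

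**Figure D3:**
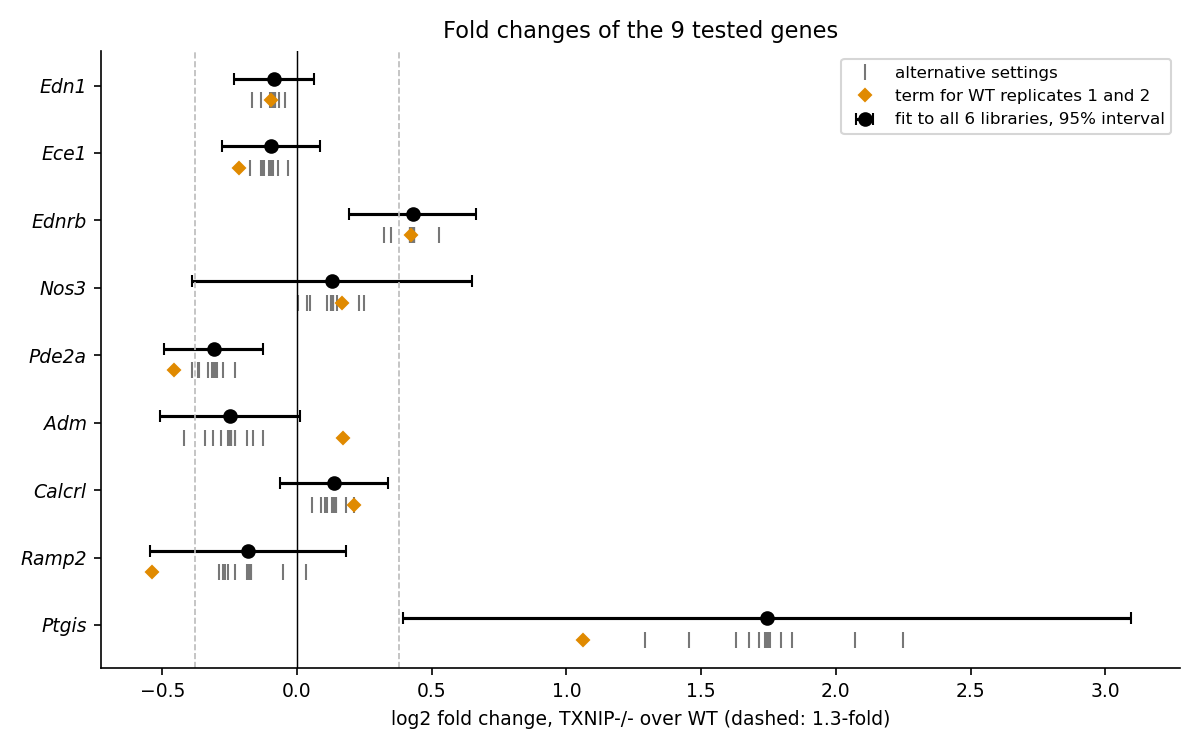
Log2 fold change of TXNIP-/- over WT for the 9 tested genes from the fit to all 6 libraries, with 95% intervals (black), and from the alternative settings (grey ticks, with the term for WT replicates 1 and 2 as orange diamonds). Dashed lines mark a 1.3-fold change. Ednrb, Ptgis and Pde2a have intervals that leave out 0, and the orange diamond of Adm, at 0.17, is on the other side of 0 from its value of -0.25 in the fit to all libraries.

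Nos3, which encodes endothelial nitric oxide synthase, had 103, 99 and 128 counts in TXNIP-/- LSECs and 96, 130 and 99 in WT LSECs. The libraries of the genotypes were interleaved, at 11.5, 10.1 and 13.7 CPM against 9.34, 12.4 and 10.5 CPM. The means were 11.8 ± 1.81 and 10.7 ± 1.54 CPM, a log2 fold change of 0.13 (SE 0.25, adjusted p = 0.906 by edgeR). At this depth the interval of the fold change was wide, from 0.764 to 1.57, and changes of a size within it were not detectable. Nos3 ranked 7755th by level among the tested genes, far below the endothelial genes Edn1 and Pde2a. The other synthases were lower still, with Nos1 at 0 to 14 counts and Nos2 at 0 to 7 counts in a library.

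The counts given to Nos3 carry a limit of their own. Nos3 lies on chromosome 5 from 24364810 to 24384474 on the plus strand, and its 3′ end runs into exons of Atg9b, a gene for an autophagy membrane protein on the opposite strand, for 294 of its last 500 bases. Counts of Atg9b were close to those of Nos3 in each library, at 85, 115 and 132 for TXNIP-/- and 94, 123 and 97 for WT, and they summed to 646 against 655 for Nos3. Convergent pairs of coding genes were counted where both genes passed the filter on low counts. Of 211 such pairs with 3′ ends that overlap by 200 to 2000 bases, 34 (16.1%) had counts within 25% of each other in all 6 libraries. Of 424 such pairs whose 3′ ends lie up to 2000 bases apart, 5 (1.18%) did. For 2 of the overlapping pairs the counts were identical in all 6 libraries, namely Fstl3 with Prss57 (453 counts summed over libraries) and Foxp3 with Ccdc22 (935 counts), and for none of the pairs lying apart. This comparison was chosen after the values were seen, and the pair of Nos3 and Atg9b was not taken out of it. Whether Nos3 and Atg9b shared reads was not tested. Reads of Nos3 and of Atg9b cannot be told apart here, so the level and the fold change above may not be those of Nos3 alone.

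**Figure D4:**
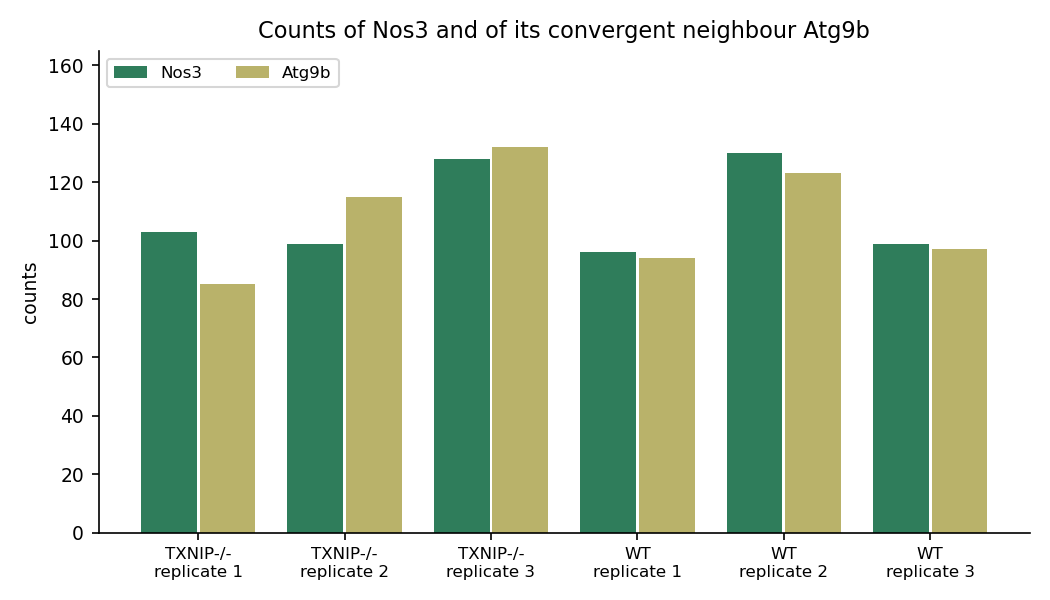
Counts (vertical axis, from 0) of Nos3 (green) and of Atg9b (ochre), the gene whose 3′ end overlaps it on the opposite strand, in each of the 6 libraries. The bars of a pair are of like height, such as 99 and 97 counts in WT replicate 3 and 128 and 132 in TXNIP-/- replicate 3, with the widest gap, 103 and 85, in TXNIP-/- replicate 1.

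Ptgis (chromosome 2, 167191805 to 167240604, minus strand) encodes prostacyclin synthase. It was counted 48, 62 and 21 times for TXNIP-/- and 16, 4 and 21 times for WT. TXNIP-/- replicates 1 and 2 were high, at 5.36 and 6.32 CPM, while TXNIP-/- replicate 3 and WT replicate 3 both had 21 counts and differed only in scaling, at 2.25 and 2.22 CPM. The means were 4.64 ± 2.13 and 1.39 ± 0.932 CPM, a fold change of 3.35 with an interval from 1.31 to 8.54. The log2 fold change of 1.74 (SE 0.64) had an unadjusted p of 0.0145 and an adjusted p of 0.273 by edgeR, and its genotypes were separate only by that margin of scaling. A term for WT replicates 1 and 2 gave a log2 fold change of 1.06 and leaving out WT replicate 2 one of 1.29 (adjusted p = 0.649 and 0.674 by edgeR). The stellate and smooth muscle marker sums were higher in TXNIP-/- libraries as given above, and their part in the level of Ptgis was not tested. In the annotation its 3′ end overlaps 1110018N20Rik on the opposite strand, for 475 of its last 500 bases, which was not analysed here.

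Pde2a (chromosome 7, 101421691 to 101512827, plus strand) encodes a phosphodiesterase that hydrolyses cyclic GMP and cyclic AMP. It had 4856, 5817 and 4875 counts in TXNIP-/- LSECs and 6479, 6980 and 7163 in WT LSECs. All TXNIP-/- libraries, at 542, 593 and 521 CPM, were below all WT libraries, at 631, 665 and 758 CPM. The means were 552 ± 36.9 and 684 ± 65.7 CPM, a fold change of 0.807 (95% interval 0.710 to 0.917) and a log2 fold change of -0.31 (SE 0.09). The unadjusted p was 0.0025 and the adjusted p was 0.103 by edgeR, so Pde2a was not called, and the fold change was also short of 1.3. Unlike Adm, its highest level was in WT replicate 3. The term for WT replicates 1 and 2 leaves that 1 library to stand for WT, and Pde2a was then called lower (log2 fold change -0.46, adjusted p = 0.0069 by edgeR), with the lone library assumed to vary like the others. It was also called with no normalization factors (-0.39, adjusted p = 0.0247 by edgeR), a setting that moved the median of all tested genes to -0.08. With DESeq2 (adjusted p = 0.0317) and with no filter on low counts (0.0167 by edgeR) it passed the threshold on p but not that on fold change. In the annotation the last 500 bases of Pde2a lie within Gm45837 on the same strand, which was not analysed here.

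Around these genes, 6 pathway lists were counted: endothelin, nitric oxide synthesis, cyclic GMP, adrenomedullin and CGRP, prostanoid, and angiotensin and kinin. Beside the 10 genes they held 98 others, all present in the files, of which 54 passed the filter on low counts. None of the 54 was called by edgeR or limma-trend and DESeq2 called 1, Ptges2, while 26 had a higher and 28 a lower mean in TXNIP-/- LSECs, and their median log2 fold change was -0.02. An unadjusted p under 0.05 was found for 9 of the 54 (16.7%), beside 11.5% of all tested genes, and 10 had no overlap between the genotypes, beside 17.4%. The most abundant other gene of each list, named by rule, was Ece2, the chaperone Hsp90ab1 (3354 ± 212 against 3069 ± 135 CPM), the natriuretic peptide receptor Npr1, the receptor component Crcp (24.0 ± 2.15 against 23.4 ± 4.73 CPM), the co-chaperone and prostaglandin E synthase Ptges3 (270 ± 31.5 against 244 ± 12.3 CPM) and the angiotensin receptor associated protein Agtrap (38.3 ± 2.32 against 46.5 ± 5.07 CPM).

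**Figure D5:**
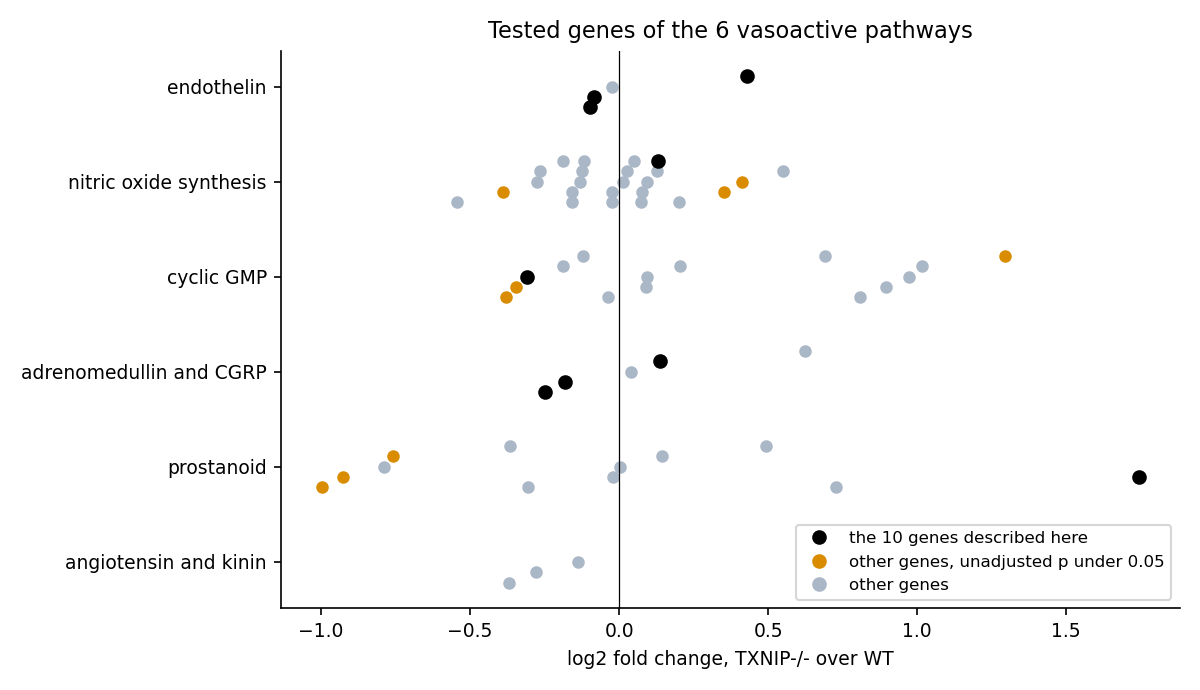
Log2 fold change of TXNIP-/- over WT for each tested gene of the 6 pathway lists, with the genes described here in black, other genes with an unadjusted p under 0.05 in orange and the rest in grey. The vertical spread within a list has no meaning. No gene shown passed the call, and the orange genes lie on both sides of 0.

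The 9 other genes with an unadjusted p under 0.05 are named for it, after their values were seen. In the supply of substrate and cofactor for nitric oxide synthase, Slc7a1, the main arginine transporter, was 145 ± 6.27 against 113 ± 5.64 CPM (log2 fold change 0.35, adjusted p = 0.0893), and Gch1, the first enzyme of tetrahydrobiopterin synthesis, was 35.0 ± 2.18 against 26.3 ± 3.01 CPM (0.41, adjusted p = 0.286). All TXNIP-/- libraries were above all WT libraries for both. Ddah2, related to the enzyme that degrades endogenous methylarginine inhibitors of nitric oxide synthase, was 84.1 ± 9.18 against 110 ± 9.21 CPM (-0.39, adjusted p = 0.114), with all TXNIP-/- libraries below all WT libraries. These adjusted p-values are from edgeR, and none passed.

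In the cyclic GMP list, Npr1, a membrane guanylate cyclase, was 48.8 ± 4.47 against 62.0 ± 3.30 CPM (log2 fold change -0.34, adjusted p = 0.256 by edgeR) and did not overlap between genotypes. Gucy1a3, a subunit of the soluble guanylate cyclase that senses nitric oxide, was near the low end at 3.42 ± 1.42 against 1.39 ± 0.322 CPM (1.29, adjusted p = 0.416). Pde3b, a phosphodiesterase that is inhibited by cyclic GMP, was 34.7 ± 2.69 against 45.2 ± 7.37 CPM (-0.38, adjusted p = 0.314), and overlapped because TXNIP-/- replicate 3 and WT replicate 3 were close, at 37.8 and 37.7 CPM.

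In the prostanoid list the other 3 genes had lower means in TXNIP-/- LSECs, where Ptgis had a higher one. Ptges2, a prostaglandin E synthase, was 7.10 ± 1.08 against 13.5 ± 1.10 CPM (log2 fold change -0.93, adjusted p = 0.0929 by edgeR), with no overlap. Hpgds, the haematopoietic prostaglandin D synthase, was 5.83 ± 1.61 against 11.7 ± 1.08 CPM (-0.996, adjusted p = 0.115), also with no overlap. Hpgd, which inactivates prostaglandins, was 18.5 ± 4.40 against 31.2 ± 14.2 CPM (-0.76, adjusted p = 0.279), with 34.0 and 43.8 CPM in WT replicates 1 and 2 and 15.8 CPM in WT replicate 3. Hpgds is known from macrophages and mast cells, and the Kupffer cell marker sum was lower in all TXNIP-/- libraries as given above, but its part in these levels was not tested. Upstream of Ptgis, the cyclooxygenase Ptgs1 was 21.1 ± 1.74 against 27.1 ± 6.08 CPM and Ptgs2 was at 0 to 23 counts, too low to be tested, and the prostacyclin receptor Ptgir had at most 6 counts in a library.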

How the data were processed

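LSEC RNA was measured in 3 TXNIP-/- and 3 WT libraries, and all 6 were used. The deposited values are whole-number counts per gene symbol, which the authors made by aligning QuantSeq 3′ reads with Bowtie2 and counting unique and multiple alignments with Bedtools. The submitters' processing notes name mm10, and tool versions, annotation and use of strand are not given in the sources used here. In R 4.3.3, edgeR 4.0.16 was applied with filterByExpr, TMM factors, glmQLFit and glmQLFTest, no term other than genotype, and p-values adjusted by Benjamini-Hochberg over 11583 genes. Each file has 23282 rows, 44 of which repeat a symbol and were kept apart. Standard errors and 95% intervals were derived from each gene's F statistic, and the test was checked on simulated data. The simulated data held no split among the WT libraries and only changes larger than those of Ednrb and Pde2a, so the check does not cover these. Positions are from GENCODE M21 on GRCm38, matched by symbol. Alternatives were RLE, upper quartile or no factors, leaving out Rn45s, other filters, DESeq2 1.42.0, limma-trend (limma 3.58.1, prior count 2), the replicate block, a term for WT replicates 1 and 2, each library left out, and other thresholds. The genes named were the 10 genes, Txnip, other pathway genes that were called and the most abundant other gene of each list, and further genes were named after their values were seen. Gucy1a3 and Gucy1b3 stand for Gucy1a1 and Gucy1b1. The genes and lists were chosen with earlier results of these data known. Poisson intervals and floors cover counting error only.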

Additional observations from a re-analysis of the deposited data

How the results depend on the processing

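Across all genes 167 were called. The count was 301 with no filter on low counts, 252 with DESeq2 and 57 with a log2 fold change above 1.3. With an unadjusted p under 0.05 and a fold change still above 1.3, called an unadjusted p in this section, it was 867. With each library left out it lay between 89 (without WT replicate 1) and 301 (without WT replicate 3). Of the 10 genes, 0 were called. The count was 1 with no filter (Ednrb), with DESeq2 (Ednrb), with no normalization factors (Pde2a) and with the term for WT replicates 1 and 2 (Pde2a), and 2 with an unadjusted p (Ednrb and Ptgis). With each library left out it lay between 0 and 2, and the calls were Ednrb without TXNIP-/- replicate 3 and Ednrb and Adm without WT replicate 3. Of the other pathway genes, 0 were called, against 2 with no filter (Ddah2 and Hpgd), 1 with DESeq2 (Ptges2), 7 with an unadjusted p, and 0 to 1 with each library left out (Hpgd without WT replicate 3). The log2 fold change of Adm turned from -0.25 to 0.17 with the term for WT replicates 1 and 2. That of Ramp2 ran from -0.29 to 0.033 over the libraries left out, and was above 0 without WT replicate 3. The cause of these shifts was not tested. With the replicate block 108 genes and none of the 10 were called. Same-numbered libraries had correlations of deviations of -0.030, 0.017 and -0.047, so no shared shift was seen. These values cannot show whether same-numbered libraries were prepared together, which the labels do not say. Where a library left out leaves 2 of a genotype, the spread is pooled over the rest. Ednra, Nos3 and Ptgis are limited by depth, and Nos3 also by the overlap with Atg9b.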
